A study of Sus scrofa with 9 samples.

Results

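The genes described here are 7 members of the S100 family of small calcium-binding proteins, S100A8, S100A9, S100A12, S100A4, S100A6, S100A10 and S100A11, and CHI3L1, a secreted chitin-binding glycoprotein that is no S100 protein. They were chosen by name, with earlier results of these data known. A gene was counted as measured when a probe set carried its symbol alone in the array annotation, which held for 6 of the 8 members, among 12362 genes named in this way and 19124 probe sets in all. Their NCBI Gene IDs in the annotation were 100127488 (S100A8), 100127489 (S100A9), 100301483 (S100A12), 100156358 (S100A4), 445534 (S100A11) and 396865 (CHI3L1). S100A6 and S100A10 had no probe set with their symbol and were not analysed here. The 3 myeloid members S100A8, S100A9 and S100A12 were compared with the 3 others that were measured, S100A4, S100A11 and CHI3L1.

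Kidney biopsies came from 9 male Yorkshire pigs, with 1 Affymetrix array per animal and 3 animals per group. In NEVKP kidneys, normothermic ex vivo perfusion (warm perfusion outside the body) lasted 8 h. SCS kidneys spent 8 h in static cold storage, without flow. No Storage kidneys went back into the animal directly. All 3 groups shared 30 min of warm ischemia of the right kidney, a flush, autotransplantation into the same pig, removal of the left kidney and a biopsy on day 3 after surgery, so no group is an untouched kidney.

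S100 proteins bind calcium through paired EF-hand loops, mostly as dimers. In human neutrophils and monocytes S100A8 and S100A9 form the heterodimer calprotectin, which is released from activated or dying cells and signals through TLR4 and the receptor RAGE (gene AGER). S100A12, a ligand of RAGE, is made by the same cells in human and pig, while mice lack the gene. S100A4 and S100A11 are found in many cell types, where they act on the cytoskeleton, on cell movement and on membranes. CHI3L1, known as YKL-40, binds chitin without cleaving it, is secreted by macrophages, neutrophils and other cells, and is studied in urine as a marker of injury to kidney grafts.

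Array medians lay between 5.70 and 5.80 on the log2 scale, and arrays correlated at 0.974 to 0.991 across probe sets. The tubule genes UMOD, the uromodulin of the thick ascending limb, and LRP2 (megalin, of the proximal tubule) had log2 values of at least 8.84 and 11.42 in all arrays. SLC34A1, a phosphate carrier of the proximal tubule, lay below the array medians in mean, at 4.72 in NEVKP, 5.45 in SCS and 4.43 in No Storage. LRP2 and SLC34A1 were named after their values were seen. Array weights, which fall where an array fits its group poorly, were lowest for NEVKP replicate 2 (0.565) and SCS replicate 2 (0.464).

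None of the 6 measured members passed an adjusted p of 0.05 in any comparison. For SCS against No Storage, 31 probe sets passed, which is 0.162% of the array, and 4 of the 6 members had an unadjusted p under 0.05, beside 15.5% of all probe sets (2973). For NEVKP against No Storage 0 probe sets passed in limma (0%), with 1735 or 9.07% at an unadjusted p under 0.05 and 0 members among them. For NEVKP against SCS 0 passed as well (0%), with 1434 or 7.5% at an unadjusted p under 0.05, 3 members included. The genes nearest to the threshold were S100A12 and CHI3L1 in SCS against No Storage, at ranks 179 and 183 of 19124 by p.

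Among the myeloid members, S100A12 differed most. Its log2 values were 5.86, 5.82 and 5.99 in NEVKP replicates 1 to 3. Values were 7.28, 6.45 and 6.46 in SCS replicates 1 to 3, and 4.93, 5.98 and 4.73 in No Storage replicates 1 to 3. Every SCS array lay above every other array, the NEVKP arrays lay within 0.18 of each other, and No Storage replicate 2 stood at the NEVKP level.

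On the log2 scale S100A12 averaged 6.73 ± 0.47 in SCS and 5.21 ± 0.67 in No Storage kidneys (SD, n = 3 each), a log2 difference of 1.51 or 2.86-fold (95% interval 0.81 to 2.22, limma adjusted p = 0.0748). NEVKP kidneys averaged 5.89 ± 0.09 (SD, n = 3). Against No Storage that was a difference of 0.68 (interval -0.03 to 1.38, limma adjusted p = 0.56), and these groups overlapped. Without No Storage replicate 2 this difference was 1.06, and without No Storage replicate 3 it was 0.44. Against SCS, NEVKP differed by -0.84 (interval -1.54 to -0.13, limma adjusted p = 0.648), with all NEVKP arrays lower. In order of level SCS came first, then NEVKP and then No Storage, and no step in that order passed the threshold.

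S100A9 and S100A8, the calprotectin subunits, were dim, with mean values in the 11.03 and 18.1 percentiles of all probe sets, so little signal stands behind their differences. S100A9 had log2 values of 2.39, 2.58 and 2.68 in NEVKP, 2.92, 2.90 and 2.98 in SCS, and 2.53, 2.53 and 2.79 in No Storage. The SCS arrays again lay above all others, by a smaller margin. SCS differed from No Storage by 0.32 (interval 0.03 to 0.60, limma adjusted p = 0.275), and NEVKP from SCS by -0.39 (interval -0.67 to -0.10, limma adjusted p = 0.599). NEVKP differed from No Storage by -0.07 (interval -0.36 to 0.22).

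S100A8 had log2 values of 3.19, 3.22 and 3.25 in NEVKP, 3.94, 3.17 and 3.28 in SCS, and 3.55, 3.28 and 3.09 in No Storage. SCS replicate 1 was high and the other arrays overlapped across groups. The differences were 0.15 for SCS against No Storage (interval -0.29 to 0.60), -0.09 for NEVKP against No Storage (interval -0.53 to 0.36) and -0.24 for NEVKP against SCS (interval -0.69 to 0.21). Their limma adjusted p ran from 0.781 to 0.942. Without SCS replicate 1 the difference was -0.08 for SCS against No Storage and -0.0019 for NEVKP against SCS.

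**Figure D1:**
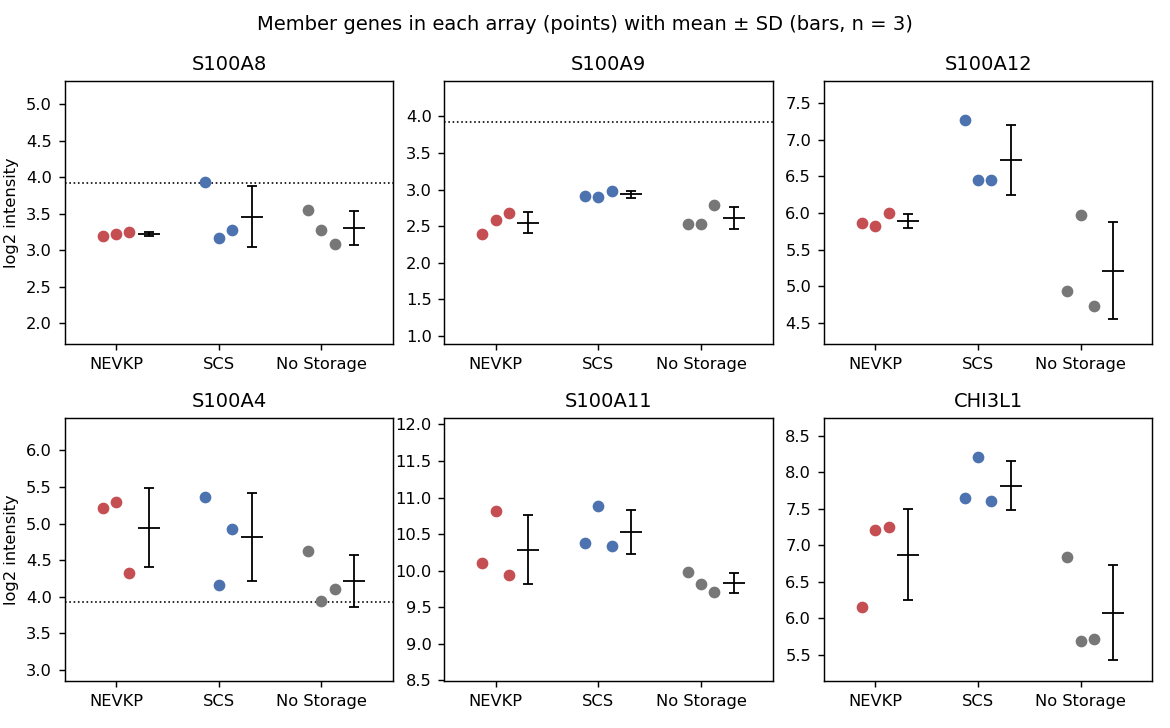
Log2 intensity (vertical axis, the same span in each panel) of the 6 measured members in NEVKP, SCS and No Storage kidneys (horizontal axis). Points are arrays, in order of replicate, bars give mean ± SD (n = 3), and the dotted line is the dim bound of 3.92. All SCS arrays lie above all others for S100A9, S100A12 and CHI3L1, with S100A12 at 6.45 or more there.

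CHI3L1 had the largest difference of all members. Its log2 values were 6.16, 7.20 and 7.26 in NEVKP replicates 1 to 3. Values were 7.65, 8.20 and 7.60 in SCS replicates 1 to 3, and 6.83, 5.68 and 5.72 in No Storage replicates 1 to 3. The SCS arrays lay above all others, whereas NEVKP and No Storage overlapped through the high No Storage replicate 1 and the low NEVKP replicate 1.

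CHI3L1 averaged a log2 value of 7.82 ± 0.34 in SCS and 6.08 ± 0.65 in No Storage kidneys (SD, n = 3 each), a log2 difference of 1.74 or 3.34-fold (interval 0.93 to 2.55, limma adjusted p = 0.0748). NEVKP, at 6.87 ± 0.62 (SD, n = 3), differed from No Storage by 0.79 (interval -0.02 to 1.60, limma adjusted p = 0.557). NEVKP differed from SCS by -0.95 (interval -1.75 to -0.14, limma adjusted p = 0.648). Without NEVKP replicate 1 the difference from SCS was -0.59. With an array omitted, the difference of NEVKP from No Storage ran from 0.60 to 1.17.

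S100A11, which binds annexin A1, was the brightest member, in the 97.5 percentile of mean values. Its log2 values were 10.10, 10.82 and 9.94 in NEVKP, 10.37, 10.88 and 10.34 in SCS, and 9.98, 9.81 and 9.70 in No Storage. All SCS arrays were above all No Storage arrays, and the NEVKP arrays overlapped both groups. The differences were 0.70 for SCS against No Storage (interval 0.18 to 1.22, limma adjusted p = 0.19), 0.45 for NEVKP against No Storage (interval -0.06 to 0.97, limma adjusted p = 0.592) and -0.24 for NEVKP against SCS (interval -0.76 to 0.28). Without NEVKP replicate 2 NEVKP differed from No Storage by 0.19 and from SCS by -0.51. The difference from SCS was -0.15 without NEVKP replicate 1 and -0.07 without either NEVKP replicate 3 or SCS replicate 2.

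S100A4, also called fibroblast-specific protein though other motile cells express it, was low but not dim. It had log2 values of 5.21, 5.30 and 4.33 in NEVKP, 5.36, 4.16 and 4.93 in SCS, and 4.62, 3.93 and 4.10 in No Storage. Arrays of all groups overlapped, with 1 low array each in NEVKP (replicate 3) and SCS (replicate 2). It was the only measured member whose NEVKP mean exceeded its SCS mean, by 0.13 (interval -0.62 to 0.88, limma adjusted p = 0.936), and this sign turned when SCS replicate 2 (-0.20), NEVKP replicate 1 (-0.0025) or else NEVKP replicate 2 (-0.05) was omitted. Against No Storage the differences were 0.73 for NEVKP (interval -0.02 to 1.48, limma adjusted p = 0.56) and 0.60 for SCS (interval -0.15 to 1.35, limma adjusted p = 0.441). The SCS difference was 0.33 without SCS replicate 1 and 0.93 without SCS replicate 2.

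**Figure D2:**
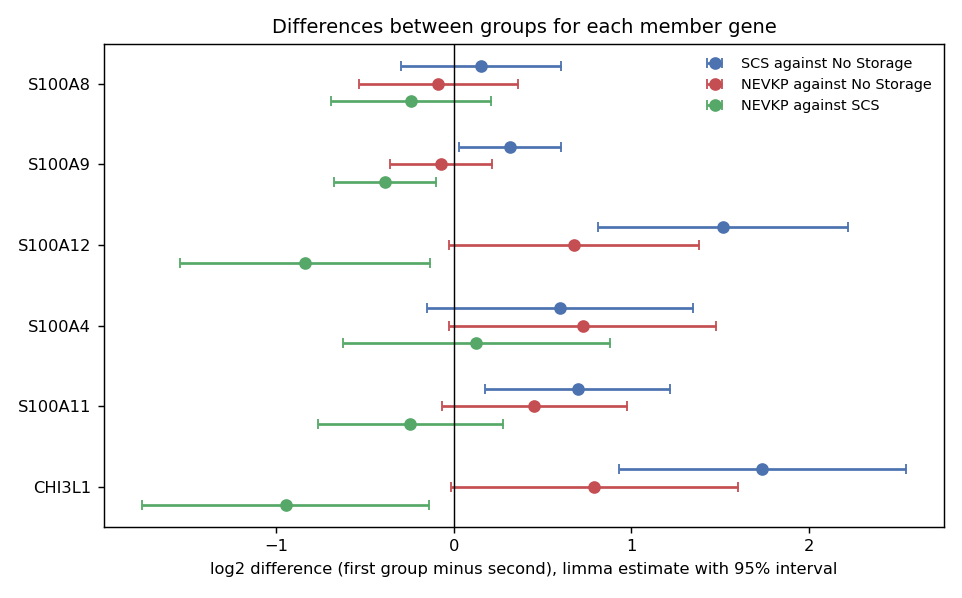
Log2 difference between groups (horizontal axis, first group minus second) for each member (vertical axis), with the 95% interval of the limma fit. For SCS against No Storage the interval lies above 0 for S100A9, S100A12, S100A11 and CHI3L1. For NEVKP against No Storage it covers 0 for all 6, and for NEVKP against SCS it lies below 0 for S100A9, S100A12 and CHI3L1.

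All SCS arrays lay above all No Storage arrays for 4 of the 6 members (S100A12, S100A11, CHI3L1 and the dim S100A9), as was the case for 11.3% of all probe sets. NEVKP and No Storage arrays overlapped for all 6, so 0 members had all NEVKP arrays higher, beside 7.94% of probe sets. NEVKP arrays were all lower than SCS arrays for 3 members (S100A12, CHI3L1 and the dim S100A9), beside 6.78% of probe sets. The last and the first of these comparisons share the SCS arrays, and the comparisons with No Storage share its arrays, so their counts are not independent. The median difference of the 6 members was 0.65 for SCS against No Storage, beside 0.01 for all probe sets. It was 0.57 for NEVKP against No Storage, beside -0.01, and -0.32 for NEVKP against SCS, beside -0.02.

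The myeloid and the other members were then set side by side within each array, each gene as its log2 value minus its No Storage mean. In NEVKP replicates 1 to 3 the mean of the myeloid members was 0.10, 0.16 and 0.26, and that of the other members 0.44, 1.07 and 0.46. In SCS the myeloid mean was 1.00, 0.46 and 0.53, and the mean of the others 1.08, 1.04 and 0.91. In No Storage the myeloid mean was -0.04, 0.22 and -0.17, and the mean of the others 0.44, -0.23 and -0.20. The myeloid mean was below the mean of the others in every NEVKP and SCS array and in No Storage replicate 1.

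The myeloid mean minus the mean of the others averaged -0.48 ± 0.37 in NEVKP, -0.35 ± 0.25 in SCS and 0.00 ± 0.46 in No Storage (SD, n = 3 each), so the gap in both stored groups was close in size to the spread of the No Storage arrays. In NEVKP the myeloid mean ran from 0.10 to 0.26, which did not reach the SCS range of 0.46 to 1.00. The other members had 0.44 to 1.07 in NEVKP and 0.91 to 1.08 in SCS, and overlapped through NEVKP replicate 2 alone. Single genes did not divide in this way. For CHI3L1 all NEVKP arrays were below all SCS arrays, and for S100A8 these groups overlapped. No p is given for these means, since the members were chosen with results known. The gap depended on single arrays and on which genes were included. With 1 array omitted it ran from -0.72 (without No Storage replicate 1) to -0.26 (without No Storage replicate 2) for NEVKP against No Storage. For SCS against No Storage the same omissions gave -0.59 and -0.12. For NEVKP against SCS it was -0.14, and -0.28 without NEVKP replicate 3, -0.0029 without SCS replicate 1 and 0.07 without NEVKP replicate 2. With CHI3L1 left out of the other members the gap was 0.01 for SCS against No Storage, -0.42 for NEVKP against No Storage and -0.43 for NEVKP against SCS. With S100A12 alone as the myeloid gene, its difference from No Storage was above the mean of the others by 0.50 in SCS and by 0.02 in NEVKP. For NEVKP against SCS, S100A12 alone then lay further down than the mean of the others, by -0.48.

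**Figure D3:**
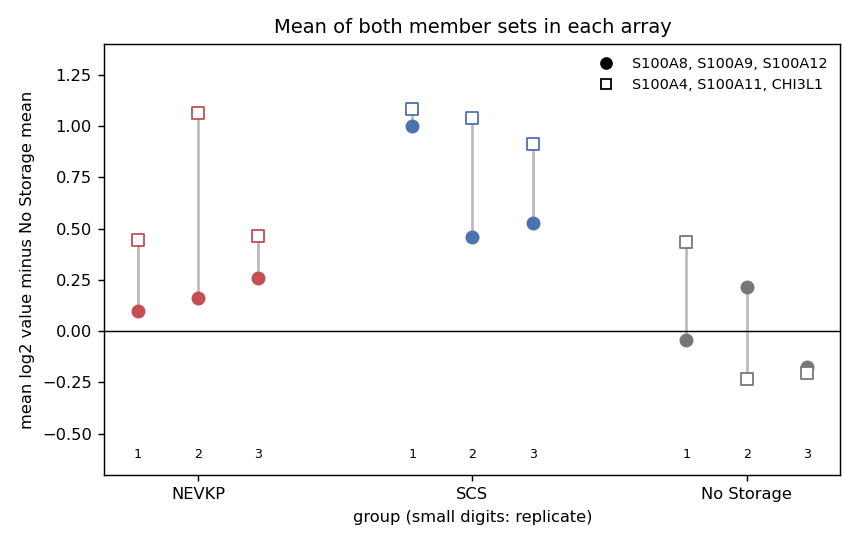
Mean log2 value minus the No Storage mean (vertical axis) of S100A8, S100A9 and S100A12 (circles) and of S100A4, S100A11 and CHI3L1 (squares) in each array, by group (horizontal axis). Grey lines join both means of an array. Circles lie between 0.10 and 0.26 in NEVKP and between 0.46 and 1.00 in SCS.

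Across the 9 arrays the members were only loosely alike. Pearson correlations of the 15 pairs ran from -0.04 to 0.78, as a description over arrays that share their normalisation and their groups. S100A11 and CHI3L1 had the highest, 0.78 (Spearman 0.78), which was 0.82 without the 2 arrays farthest from the S100A11 median and 0.50 once group means were removed. For S100A12 and CHI3L1 it was 0.63 (Spearman 0.73), and -0.28 with group means removed. S100A8 and S100A9, whose products form the heterodimer, had 0.21 (Spearman 0.13), and -0.27 with group means removed. S100A8 and S100A12 had 0.48, and 0.51 with group means removed, while S100A9 and S100A12 had 0.50, and -0.33 with group means removed.

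The S100A genes lie together on the pig genome, and RefSeq places S100A12 directly between S100A8 and S100A9 in its Sscrofa11.1 order, with no other coding gene in between. S100A11 is next to S100A10, with 29 coding genes between S100A9 and S100A11, and S100A4 lies between S100A3 and S100A5. Of 15 S100A genes in this order, 11 had a named probe set. Adjacent genes differed in size of difference: for SCS against No Storage it was 0.15 for S100A8, 1.51 for S100A12 and 0.32 for S100A9, and -0.02 for S100A3, 0.60 for S100A4 and -0.21 for S100A5. Whether the dim probe sets of S100A8, S100A9, S100A3 and S100A5 could show a difference of the size seen for S100A12 was not tested.

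Of 8 other S100 genes with a named probe set, 0 passed in any comparison in limma, and 5 of them were dim. S100A2, a member found mainly in epithelial cells, was the exception in size. It had log2 values of 5.15, 5.30 and 4.94 in NEVKP, 5.96, 5.57 and 5.86 in SCS, and 4.81, 5.20 and 4.80 in No Storage, with SCS arrays above all others. SCS differed from No Storage by 0.86 (interval 0.50 to 1.23, limma adjusted p = 0.0646) and NEVKP from SCS by -0.67 (interval -1.04 to -0.30, limma adjusted p = 0.52). S100A16 differed by 0.36 for NEVKP against No Storage (limma adjusted p = 0.557). The median over the 8 was 0.07 for SCS against No Storage, 0.09 for NEVKP against No Storage and 0.0037 for NEVKP against SCS.

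**Figure D4:**
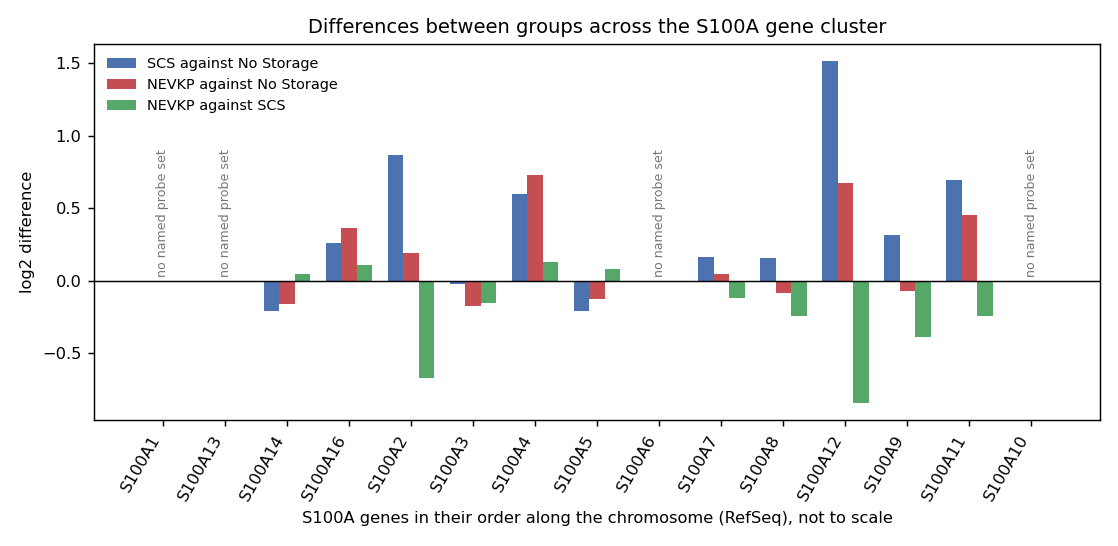
Log2 difference between groups (vertical axis, bars from 0) for the 15 S100A genes in their RefSeq order (horizontal axis, not to scale). S100A1, S100A13, S100A6 and S100A10 had no named probe set. For SCS against No Storage the bar of S100A12 reaches 1.51 between 0.15 for S100A8 and 0.32 for S100A9.

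Of 14 measured receptors and signalling partners of these proteins, 0 passed in any comparison in limma. At an unadjusted p under 0.05, 2 were higher in SCS and 2 in NEVKP, each against No Storage, and 2 were lower in NEVKP than in SCS. Over all probe sets the share at that p, in either direction, was 15.5% for SCS and 9.07% for NEVKP against No Storage. It was 7.5% for NEVKP against SCS. CD44, an adhesion receptor for hyaluronan that also binds CHI3L1 in human cells, came closest. It had log2 values of 8.17, 8.32 and 7.88 in NEVKP, 8.71, 8.94 and 8.39 in SCS, and 7.59, 8.03 and 7.06 in No Storage. SCS differed from No Storage by 1.12 (interval 0.59 to 1.66, limma adjusted p = 0.0801) and NEVKP from SCS by -0.56 (limma adjusted p = 0.655), in the same order of groups as S100A12 and CHI3L1. LY96, the TLR4 co-receptor MD-2, differed by 0.79 for SCS against No Storage (limma adjusted p = 0.166) and by -0.71 for NEVKP against SCS (limma adjusted p = 0.602). TLR4 itself differed by 0.71 for NEVKP against No Storage (limma adjusted p = 0.528) and by 0.51 for SCS against No Storage (limma adjusted p = 0.446). AGER, the gene of RAGE, differed by 0.20 for NEVKP against No Storage (interval -0.09 to 0.50). For NEVKP against SCS it was 0.21 (interval -0.08 to 0.51).

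Among 18 measured genes listed as intracellular partners, 0 passed in limma in any comparison. The list also holds genes of plasmin formation and of cell surface proteins. At an unadjusted p under 0.05, 6 were higher in SCS than in No Storage, and 3 were higher and 1 lower in NEVKP than in No Storage. Of all probe sets, 15.5% and 9.07% had such a p in these comparisons, in either direction. ANXA1, the annexin bound by S100A11, had log2 values of 9.58, 9.48 and 9.58 in NEVKP, 10.003, 9.59 and 9.38 in SCS, and 8.95, 8.77 and 8.47 in No Storage. All arrays of both stored groups lay above all No Storage arrays, by 0.81 for NEVKP (limma adjusted p = 0.342) and 0.93 for SCS (limma adjusted p = 0.0646). ANXA2, the partner of S100A10, differed by 0.73 for SCS against No Storage (limma adjusted p = 0.136). PLAUR, the urokinase receptor of the cell surface, listed because S100A10 takes part in plasmin formation, differed by 1.01 for NEVKP (limma adjusted p = 0.384) and 1.15 for SCS (limma adjusted p = 0.0833), each against No Storage. MYH9, the non-muscle myosin heavy chain bound by S100A4, differed by -0.38 for NEVKP against SCS (limma adjusted p = 0.648). TRPV5, an epithelial calcium channel brought to the membrane by S100A10 and annexin A2, differed by -1.54 for NEVKP against No Storage (interval -2.49 to -0.58, limma adjusted p = 0.395). Its log2 values were 6.68, 4.99 and 5.07 in NEVKP, 6.58, 6.75 and 6.65 in SCS, and 6.49, 7.76 and 7.10 in No Storage, so NEVKP replicate 1 stood apart from the other NEVKP arrays and overlapped both groups.

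Of 5 measured relatives of CHI3L1 in the chitinase family, 0 passed in limma in any comparison. None was higher at an unadjusted p under 0.05, beside 7.5% to 15.5% of all probe sets in either direction. OVGP1, an oviduct glycoprotein of this family, lay lower in both stored groups, by -0.70 in NEVKP (limma adjusted p = 0.508) and -0.78 in SCS (limma adjusted p = 0.208) against No Storage. CHIT1, the chitinase of macrophages, differed by -0.09 for NEVKP against No Storage (interval -0.47 to 0.30). CHI3L2, another chitinase-like protein, was dim and differed by 0.41 for SCS against No Storage (limma adjusted p = 0.346).

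**Figure D5:**
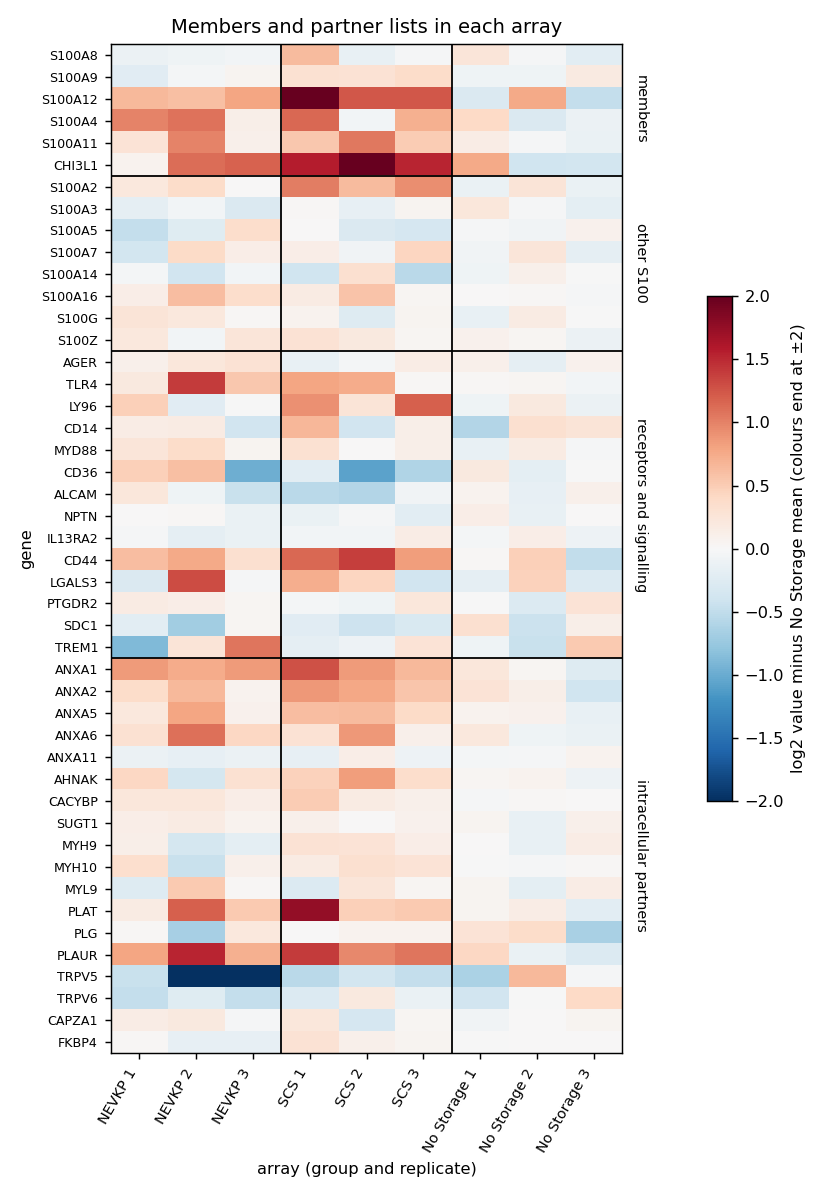
Log2 value minus the No Storage mean (colour) for members, other S100 genes, receptors and signalling partners, and intracellular partners (vertical axis) in each array (horizontal axis). Red is higher and blue lower, with colours ending at ±2. S100A12, CHI3L1, CD44, ANXA1 and PLAUR are red in all 3 SCS arrays, with S100A12 at 2.06 in SCS replicate 1.

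Markers of the cells known to hold these proteins were measured in the same arrays. In a biopsy, more cells of a type and more RNA per cell cannot be told apart. Of 28 listed neutrophil markers 10 were measured, and 0 passed in any comparison in limma. At an unadjusted p under 0.05, 0 were higher in SCS and 1, NCF4, a subunit of the phagocyte oxidase, was higher in NEVKP, by 0.43 against No Storage (limma adjusted p = 0.439). Of all probe sets, 15.5% and 9.07% had such a p in these comparisons, in either direction. The mean log2 value of the 10 markers was 4.92 to 5.34 in NEVKP, 5.11 to 5.28 in SCS and 5.01 to 5.07 in No Storage. MPO, the granule enzyme myeloperoxidase, and PADI4 were the 2 dim markers, MPO being named after its values were seen, and CXCR2, a chemokine receptor of neutrophils, differed by 0.29 for SCS against No Storage (limma adjusted p = 0.536). LCN2, which injured tubules also make, differed by 0.54 in that comparison (limma adjusted p = 0.54).

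Of 27 monocyte and macrophage markers 21 were measured, and 0 passed in any comparison in limma. Their mean log2 value was 6.77 to 7.13 in NEVKP, 6.37 to 6.79 in SCS and 6.42 to 6.58 in No Storage. In NEVKP against No Storage 9 were higher and 1 lower at an unadjusted p under 0.05, led by SPI1, which encodes the myeloid transcription factor PU.1, at 0.93 (limma adjusted p = 0.299) and CD86 at 1.10 (limma adjusted p = 0.299). In SCS against No Storage 5 were higher and 2 lower, with SPI1 at 1.03 (limma adjusted p = 0.0513) and LST1 at -0.67 (limma adjusted p = 0.103). The shares of all probe sets at such a p, in either direction, were 9.07% for NEVKP and 15.5% for SCS, each against No Storage. For NEVKP against SCS 17 of the 21 were higher, with a median difference of 0.26. At an unadjusted p under 0.05, 5 were higher and 0 lower, beside 7.5% of all probe sets in either direction. The complement chains C1QA, C1QB and C1QC differed by 1.03, 0.99 and 1.08 (limma adjusted p = 0.563, 0.52 and 0.563). Their means were 8.87, 9.83 and 8.98 in NEVKP, 7.84, 8.84 and 7.90 in SCS, and 8.44, 9.47 and 8.55 in No Storage. For each chain every SCS array lay below every No Storage array, and so did NEVKP replicate 1. SPI1 was not among the markers higher in NEVKP than in SCS, with means of 7.06 in NEVKP and 7.15 in SCS. S100A12 and CHI3L1 differed by -0.84 and -0.95 for NEVKP against SCS. The part of these cells in the differences of the members was not tested.

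Of 14 fibroblast and myofibroblast markers 12 were measured, and 0 passed in limma, with a median difference of 0.65 for SCS and 0.61 for NEVKP, each against No Storage. At an unadjusted p under 0.05, 8 were higher in SCS and 7 in NEVKP than in No Storage, and 0 were lower. Of all probe sets, 15.5% and 9.07% had such a p in these comparisons, in either direction. The mean log2 value of the 12 markers was 9.43 to 9.82 in NEVKP, 9.56 to 9.92 in SCS and 8.92 to 9.09 in No Storage. For NEVKP against SCS their median was -0.04, with 6 of the 12 higher and 6 lower. FN1 (fibronectin) had the lowest value there, -0.82 (limma adjusted p = 0.52), and differed by 1.28 for SCS against No Storage (limma adjusted p = 0.0513). The 15 measured tubule markers had a mean of 9.66 to 9.82 in NEVKP, 9.23 to 9.69 in SCS and 9.90 to 10.003 in No Storage, and 0 passed in limma. For SCS against No Storage their median difference was -0.73. At an unadjusted p under 0.05, 8 were lower and 3 higher, beside 15.5% of all probe sets in either direction. Among the lower ones were SCNN1A, a sodium channel subunit, at -0.73 (limma adjusted p = 0.0529) and UMOD at -2.21 (limma adjusted p = 0.0895). The 3 higher ones were the keratin genes KRT18 at 1.09 (limma adjusted p = 0.0513) and KRT8 at 0.90, and SLC34A1 at 1.02, the last pair named after their values were seen. The SLC34A1 means, 5.45 in SCS and 4.43 in No Storage, lay below the array medians. The 7 measured endothelial and podocyte markers had a median array mean of 7.32 in NEVKP, 7.24 in SCS and 7.43 in No Storage, and 0 passed in limma, with 1 lower and 0 higher at an unadjusted p under 0.05 in SCS against No Storage.

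Finally, 9619 named genes that were not dim were searched, without the members and without provisional symbols such as those starting with LOC. From them the 3 genes whose log2 values followed each member most closely over the 9 arrays were taken. For S100A12 these were ABCF1 (Pearson 0.97), URB2 (0.95) and YEATS2 (0.95). CHI3L1 had RPUSD1 (0.95), EDEM2 (0.95) and WWC1 (0.95), and S100A11 had KSR1 (0.97), CACNA1C (0.97) and RELA (0.96), a subunit of NF-kappa B. S100A4 had ZNF146 (0.96), IFNGR1, a chain of the interferon gamma receptor (0.96), and LIMS1 (0.94). For the dim genes the highest values were lower, with NARF (0.89), CCDC185 (0.89) and PISD (0.88) for S100A9 and THOC3 (0.91), POP1 (0.88) and IRAK4 (0.86) for S100A8. Without the 2 arrays farthest from the S100A8 median, these last 3 were 0.45, 0.58 and 0.54, while the 3 genes nearest to S100A12 kept 0.88 to 0.95. Each is the highest of 9619 genes over 9 arrays and is given as a description.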

How the data were processed

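The files hold log2 intensities, which the authors obtained with RMA (background correction, scaling of the arrays to one another, and a summary over each probe set's probes), as the submitters' processing notes say. The notes also name limma 3.34.14. Array filters and the genome build are not stated in the material used.

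Symbols came from the array annotation, which can be old. It gave 1 symbol for 13323 of 19124 probe sets, several for 357 and none for 5444. Every measured member had 1 probe set, and its NCBI Gene ID carried the same symbol in RefSeq. For other genes with several, the brightest probe set by its mean was taken.

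All probe sets and all 9 arrays were fitted in limma 3.58.1 (R 4.3.3; lmFit and contrasts.fit, moderated with eBayes), with group as the only factor. P values were adjusted by Benjamini-Hochberg over all 19124 probe sets within each comparison, with a threshold of 0.05. Every p in the text is from this fit, except those given for alternatives in the closing section. The steps were tested on simulated data. Probe sets with a mean log2 value below 3.92, the bound of the lowest 25%, are called dim. Each animal gave 1 array, and their number, 3 per group, limits the precision.

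The members and all gene lists were chosen with earlier results of these data known. By rule, every member with a probe set is named, up to 4 genes of each of 9 further lists by smallest p in a comparison, and for each member the 3 genes most alike by Pearson correlation. Alternatives used a block for replicate number, a trended robust prior, array weights, no dim probe sets, centred arrays, only the groups compared, averaged probe sets of a gene (the same values for the members), or 1 array fewer. Limiting the sets to members that were not dim, and leaving out CHI3L1, were chosen after seeing the data.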

Additional observations from a re-analysis of the deposited data

How the results depend on the processing

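No alternative brought a member past the threshold in any comparison. Over all alternatives the adjusted p for SCS against No Storage ran from 0.0507 to 0.282 for S100A12 and from 0.0614 to 0.284 for CHI3L1, with differences from 1.24 to 1.90 and from 1.54 to 2.12. The sign turned in 8 cases, all at an adjusted p over 0.8, and was kept in 274, many of which could not turn. The block, the trended robust prior and the omission of dim probe sets left the differences of the members as they were. So did the fit of only the groups compared, the averaged probe sets, and the omission of an array from the group not compared. With an array omitted, S100A4 for NEVKP against SCS ran from -0.20 to 0.44, S100A8 from -0.19 to 0.0373 and S100A9 from -0.13 to 0.0173 for NEVKP against No Storage, and S100A8 from -0.0843 to 0.30 for SCS against No Storage. With array weights S100A4 for NEVKP against SCS was -0.0166.

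The number of probe sets past the threshold for SCS against No Storage, 31, was 83 with a trended robust prior, 93 with array weights, 82 without dim probe sets, 49 with centred arrays, 147 without SCS replicate 3, 158 without NEVKP replicate 2 and 0 to 2 without any other array. For NEVKP against SCS it was 1 with array weights, 1 without SCS replicate 2 and 0 without any other array. The median of the myeloid members for NEVKP against No Storage ran from -0.10 to 0.0373 with an array omitted. With dim members left out, S100A12 was the only myeloid member, so the myeloid value was 1.51 for SCS against No Storage, 0.68 for NEVKP against No Storage and -0.84 for NEVKP against SCS, and its gap to the other members 0.50, 0.0184 and -0.48. With the replicate number as a block, 27 probe sets passed for SCS against No Storage and no member call changed. Same-numbered arrays correlated at -0.14 to 0.13 in their deviations from the group means. Only SCS replicate 3 correlated best with its own number, in the comparison with No Storage. With 3 arrays per group this cannot show whether same-numbered animals shared anything. The number of arrays and the low signal of S100A8 and S100A9 limit what could be detected.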
